A study of Mus musculus with 9 samples.

Results

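The comparison described here sets the intestinal tract of mice on a methionine-deficient diet against that of mice on normal diet, both drinking dextran sulfate sodium (DSS), a polysaccharide that injures the gut lining and is used to model colitis. It rests on 2 of the 9 libraries of the series, 1K and R, both taken at day 28 of rearing. Genes were kept when FPKM (fragments counted per gene, scaled to transcript length and to library size) was at least 1 in either library, which held for 18165 of the 55468 genes in the deposited table. The measure is the difference of log2(FPKM + 0.5), 1K minus R, so that 1 stands for 2-fold and 2 for 4-fold, and differences of low genes are understated. With 1 library per condition there is no spread between replicates, no difference below carries a test, and each value compares a pair of libraries.

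DSS was given from day 18 in every library but C, the control on normal feed taken at day 34. R had normal diet to day 28 and RR normal diet to day 33. The methionine-deficient diet was given until day 28 in 1K and in 1KR, and 1KR then had normal diet until day 33. The diet was deficient in tryptophan and niacin in 2K, and in methionine, tryptophan and niacin in 3K, and 2KR and 3KR are the matching libraries refed with normal diet until day 33. The sources used here do not give strain, sex, age, gut segment, hour of collection or the number of animals behind a library. Body weight and food intake were not analysed here, so the nutrient deficiency and any change in the amount eaten cannot be told apart.

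Methionine is an essential amino acid that starts every protein and that is turned into S-adenosylmethionine, the methyl donor for DNA, histones, phosphatidylcholine and creatine. Homocysteine left after methyl transfer is either remethylated, with folate and cobalamin, or passed through transsulfuration to cysteine, from which glutathione, taurine and sulfate are made. The gut lining renews itself constantly from dividing crypt cells, carries Paneth cells with antimicrobial stores at the crypt base, and matures into absorptive enterocytes on the villus, which makes it a large user of dietary amino acids.

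The label of intestinal tissue was checked against markers of intestinal epithelium, which were abundant, with Vil1 at 671 FPKM in R and 942 in 1K, Cdx2 at 47.9 and 52.5, and Epcam at 570.4 and 482. Depth, estimated from the steps between low FPKM values, was about 31.5 M fragments in R and 24.3 M in 1K, and 15.6 M to 33.8 M over the 9 libraries. At that depth 1 FPKM of a 2 kb transcript stands for about 56.7 fragments in R and 43.7 in 1K. Further features of the libraries bear on the values below. Pancreatic acinar genes held 7.15% of all FPKM in 2K and 9.49% in 3K, liver genes 5.13% in 2K and stomach genes 2.44% in 2K, whereas the acinar share was 0.0233% in R and 0.00762% in 1K. Markers of gut position also differed between R and 1K, as given next.

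Most ileal genes were lower in 1K than in R, with a median difference of -0.97 and 4 of 8 at least 2-fold lower. Clec2h (0.77) and Slc51b (0.45), also on the list, were above their level in R. Fabp6, the ileal bile acid binding protein, was at 3486 in C, 1946 in R, 342 in 1K, 0.282 in 2K, 88.6 in 3K, 2.9 in RR, 0.545 in 1KR, 255 in 2KR and 658 in 3KR FPKM. C and R were the high libraries, 3KR and 1K came next, and RR and 1KR were below 3 FPKM. Fgf15, the ileal hormone that reports bile acid uptake to the liver, was at 34.5 FPKM in R and 8.25 in 1K. Of 11 genes of the proximal small intestine, 5 were higher by 2-fold or more and 2 lower (median 0.94). The 2 lower were Cybrd1 (-1.31) and Slc40a1 (-1.01), and S100g (-0.28) was also below its level in R. Gata4, the factor that marks jejunum and duodenum, was at 23.2 FPKM in R, 58.9 in 1K, 70.9 in RR and 14.2 in C. In Fabp6 and in Gata4, 1K was closer to RR than R was. The part of gut position in the results below was not tested, and many results are therefore also set against R, RR and C together, the 3 libraries from mice on normal diet throughout.

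Between 1K and R, 1302 of the 18165 genes were at least 2-fold higher in 1K (7.17%) and 1567 at least 2-fold lower (8.63%). At 4-fold the counts were 308 and 467. The median difference over all genes was 0.03, with quartiles at -0.39 and 0.42, and among 13205 protein-coding genes 790 were higher by 2-fold or more and 900 lower. Genes higher in 1K made up 45.4% of those at least 2-fold apart. That split depends on the scaling, being 31.8% after median-of-ratios scaling, which moves the median of all genes to -0.15, and 14.6% after scaling to the FPKM of protein-coding genes, which moves it to -0.47. With a floor of 5 FPKM in place of 1 it was 54.2%. Summed FPKM itself differed, at 598421 in R and 808240 in 1K. Protein-coding genes held 70.3% of it in R and 76.2% in 1K. Their summed FPKM was 420937 in R and 615610 in 1K, and 46.9% of that gain came from 20 genes, led by Reg3b. Against R, RR and C at once, 401 of 21249 genes were at least 2-fold above all 3 in 1K (1.89%) and 446 at least 2-fold below all 3 (2.1%).

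**Figure D1:**
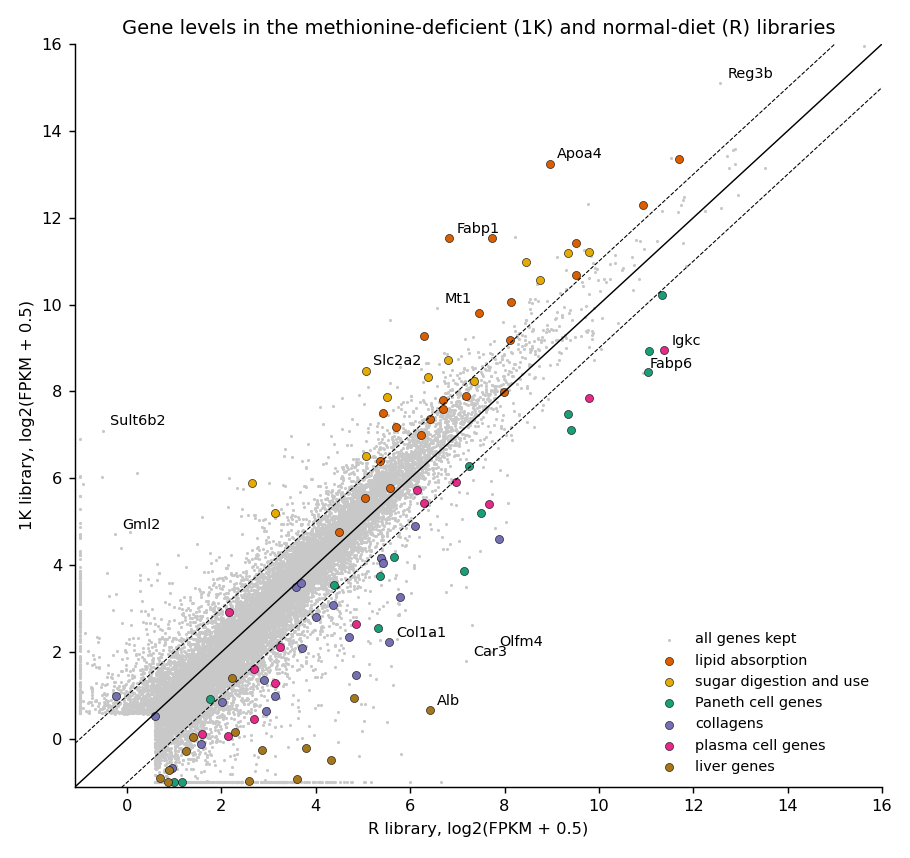
Level of each of the 18165 genes in R (horizontal axis) and in 1K (vertical axis), both as log2(FPKM + 0.5), 1 library each; the solid line marks equal levels, the dashed lines 2-fold differences, and colours mark 6 gene lists. Genes of lipid and sugar absorption lie on or above the line, and Paneth cell, collagen, plasma cell and liver genes mostly below it.

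Genes that handle methionine itself differed little. Of 11 genes of the methionine cycle, 1 was higher by 2-fold or more and 2 were lower, with a median of -0.22. Mat2a, which makes S-adenosylmethionine outside the liver and whose transcript is known to be stabilised when that product is short, was at 39.2 in C, 47.4 in R, 40.7 in 1K, 37.8 in 2K, 25.2 in 3K, 42.7 in RR, 46.5 in 1KR, 42.4 in 2KR and 53.4 in 3KR FPKM. The 1K level of Mat2a lay within the range of R, RR and C. Ahcy, which clears S-adenosylhomocysteine, was at 10.7 FPKM in R and 10.7 in 1K, and Mtr, the cobalamin-dependent methionine synthase, at 4.14 FPKM in R and 3.91 in 1K. Those 2-fold apart were Ahcyl1, a relative of Ahcy (47.9 and 105 FPKM in R and 1K, 1.12), and the liver-type genes Mat1a and Bhmt. Mat1a was at 2.31 and 0.041 FPKM in R and 1K, -2.38, and Bhmt at 1.41 and 0.305 FPKM, -1.24. Both were below 1 FPKM in 1K. None of the 5 genes that recover methionine from methylthioadenosine, and none of the 4 methionine sulfoxide reductases, was 2-fold apart.

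Transsulfuration and taurine synthesis were lower in part, with 3 of 10 genes at least 2-fold lower, none higher, and a median of -0.60. Cdo1, the cysteine dioxygenase that commits cysteine to taurine and sulfate, was at 42 in C, 22.5 in R, 4.5 in 1K, 484 in 2K, 21.4 in 3K, 20.1 in RR, 17.3 in 1KR, 23.8 in 2KR and 12.9 in 3KR FPKM. 1K was the lowest of the 9 libraries, 2K, which holds liver RNA, was far the highest, and the difference of 1K from R was -2.20. Suox, which oxidises sulfite to sulfate, was at 72.2 FPKM in R and 18 in 1K, a difference of -1.97. Suox stood at 87.1 FPKM in C and 5.98 in RR, so 1K lay inside the range of the normal-diet libraries. Cth, which releases cysteine from cystathionine, was at 15.5 FPKM in R and 19.8 in 1K, and Cbs, the entry enzyme, at 2.75 FPKM in R and 1.66 in 1K. Cdo1 is also expressed in fat and liver, and markers of both tissues were lower in 1K, as given below; their part in this difference was not tested.

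Of 20 methyltransferases, 1 was higher by 2-fold or more and 2 lower, with a median of 0.05 that turned to -0.13 after median-of-ratios scaling. Nnmt, which spends S-adenosylmethionine on nicotinamide, was at 2.05 in C, 2.14 in R, 0.115 in 1K, 83 in 2K, 1.77 in 3K, 1.68 in RR, 1.61 in 1KR, 1.9 in 2KR and 1.7 in 3KR FPKM, lowest in 1K and highest in 2K. Inmt, an N-methyltransferase of indoleamines, was at 0.108 FPKM in R and 3.35 in 1K. Inmt was also high in 2K (8.11) and 3K (6.77), and below 1 FPKM in all 6 libraries on normal diet at collection. The maintenance DNA methyltransferase Dnmt1 was at 10.6 and 5.64 FPKM in R and 1K, -0.86, and Dnmt3a, Prmt1, Prmt5, Carm1, Mettl3, Ezh2 and Setd2 were each within 2-fold.

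Folate and serine one-carbon genes had a median of 0.01, which turned to -0.18 after median-of-ratios scaling, with 2 of 17 higher by 2-fold or more and none lower. The pair that was higher are the folate carriers. Slc46a1, the proton-coupled transporter that takes up dietary folate, was at 8.71 FPKM in C, 9.94 in R, 42.1 in 1K, 90 in RR and 155 in 1KR. Slc19a1, the reduced folate carrier, was at 8.35 in C, 9.13 in R, 30.6 in 1K, 13.4 in RR and 15.5 in 1KR. Slc46a1 was therefore higher still in RR, while Slc19a1 was above R, RR and C. Polyamine genes, which consume decarboxylated S-adenosylmethionine, had a median of 0.54 that vanished after scaling to protein-coding FPKM (-0.00). Arg2, the mitochondrial arginase, was the one at least 2-fold higher (78 and 216 FPKM in R and 1K, 1.46), Arg1, the arginase of liver and macrophages, the one at least 2-fold lower (5.08 and 2.06 FPKM in R and 1K, -1.12), and Odc1 and Amd1, the rate-setting enzymes, were at 66.6 FPKM in R and 74.9 in 1K and 8.06 FPKM in R and 12.2 in 1K respectively.

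The amino acid response, driven by the transcription factor ATF4 when charged tRNA runs short, showed no common direction as a list. Of 24 of its targets 2 were higher by 2-fold or more and 2 lower, shares near the 7.17% and 8.63% over all genes. The median was 0.12 and turned to -0.07 after median-of-ratios scaling. Asns, the asparagine synthetase gene whose promoter holds the classic amino acid response element, was at 19.1 in C, 26.1 in R, 28.3 in 1K, 50.7 in 2K, 62.8 in 3K, 20.3 in RR, 23 in 1KR, 24.7 in 2KR and 22.2 in 3KR FPKM. Its 1K level was 0.11 above that of R on the log2 scale. The RefSeq promoter of Asns (GRCm38.p6, chr6:7693180-7693459, minus strand, 250 bases before the transcript start and 30 from it) is shown because it carries that element in its plain form, TGATGNAA, here in capitals.
Asns: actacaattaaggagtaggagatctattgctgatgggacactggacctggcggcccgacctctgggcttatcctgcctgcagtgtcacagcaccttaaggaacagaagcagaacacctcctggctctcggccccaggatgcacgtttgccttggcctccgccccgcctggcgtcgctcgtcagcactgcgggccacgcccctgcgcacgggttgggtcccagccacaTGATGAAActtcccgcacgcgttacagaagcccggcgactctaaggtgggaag
On either strand of the 300-base windows from 250 bases before to 50 after the start, TGATGNAA was found in 3.97% of 32851 RefSeq promoters. Counted by gene, it was found in 4.51% of the 27025 genes with an entry and in 9 of the 25 ATF4 targets with one (36.0%). It was found in 2.71% of the genes at least 2-fold higher in 1K and in 2.81% of all genes kept that have an entry. A match of letters is a description and not a binding site.

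The targets at least 2-fold apart are given by name, although their number is near the share over all genes. Trib3, a pseudokinase that feeds back on ATF4, was at 5.14 and 16.5 FPKM in R and 1K, 1.59, and Eif4ebp1, a repressor of cap-dependent translation, at 10 and 30.6 FPKM in R and 1K, 1.56. Eif4ebp1 was above R, RR and C in 1K, whereas Trib3 was at 11.6 FPKM in RR. Nupr1, a small stress-induced chromatin protein, was at 39.9 and 7.51 FPKM in R and 1K, -2.33, and Pycr1, of proline synthesis, at 3.19 and 1.05 FPKM in R and 1K, -1.25. Chac1, which degrades glutathione, was at 2.03 FPKM in R and 0.829 in 1K, and Ddit3, of the terminal stress response, at 10.5 FPKM in R and 12.7 in 1K. None of the 20 aminoacyl-tRNA synthetases was 2-fold apart (median -0.05), and neither was any of the 20 endoplasmic reticulum chaperones (median -0.28).

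Of 17 amino acid and peptide transporters 6 were higher by 2-fold or more and none lower, with a median of 0.53 that came to -0.01 after scaling to protein-coding FPKM. Slc6a19, the brush border carrier of methionine and other neutral amino acids, was at 207 in C, 294 in R, 732 in 1K, 182 in 2K, 218 in 3K, 402 in RR, 352 in 1KR, 317 in 2KR and 319.5 in 3KR FPKM. Its 1K level was the highest of the 9 and 1.32 above R. Slc6a6, the taurine carrier, was at 106 FPKM in R, 292 in 1K, 92.1 in RR and 73.7 in C, and Slc6a14, a broad carrier seen in inflamed gut, at 0.352, 9.67, 0.06 and 1.69 in the same order. Both were at least 2-fold above R, RR and C. Slc36a1 (41.7 and 145 FPKM in R and 1K, 1.79) and Slc7a8 (69.6 and 197 FPKM in R and 1K, 1.49) were higher too, while Slc7a5, the carrier of large neutral amino acids, was at 3.78 FPKM in R and 3.23 in 1K. Brush border peptidases were mixed: Mme (1.94), Ace (1.35) and Ggt1 (1.04) were among the higher, and Mep1a (-1.44) and Naaladl1 (-1.07) lower.

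Glutathione and NRF2 genes were mostly higher, with 9 of 31 at least 2-fold higher, 1 lower, 29 above 0 and a median of 0.72. Of them, 3 were at least 2-fold above R, RR and C. The number above 0 falls after scaling to protein-coding FPKM. The list was also higher in RR than in C, with a median of 0.80 and 14 of 32 genes at least 2-fold higher. Gclc, the catalytic subunit of the rate-limiting enzyme of glutathione synthesis, was at 21.2 in C, 31.4 in R, 98 in 1K, 48.5 in 2K, 58.7 in 3K, 31 in RR, 38.4 in 1KR, 33.7 in 2KR and 39.8 in 3KR FPKM. 1K was at least 2-fold above R, RR and C. Gpx2, the glutathione peroxidase of the gut epithelium, was at 168 in C, 348 in R, 804 in 1K, 46.3 in 2K, 834 in 3K, 172 in RR, 208 in 1KR, 213 in 2KR and 340.2 in 3KR FPKM, so that 1K and 3K, the libraries from mice still on a methionine-deficient diet, were apart from the other 7. Gpx4, which removes lipid peroxides, was at 128 and 431 FPKM in R and 1K, 1.74, and the microsomal transferase Mgst1 at 272 and 1107 FPKM in R and 1K, 2.02. Hmox1, the NRF2 target and haem oxygenase, was the one lower (5.3 and 1.35 FPKM in R and 1K, -1.65). The antioxidant element TGACNNNGC, on either strand, was present, counted by gene, in 8 of 27 genes of the list with an entry (29.6%), in 19.8% of the genes at least 2-fold higher, in 13.4% of those at least 2-fold lower, in 16.4% of all genes kept and in 13.99% of all genes with an entry. Its share was as high in other lists, with 8 of 25 ATF4 targets (32.0%) and 3 of 10 genes of metal handling.

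Sulfate conjugation held the largest positive difference of the named protein-coding genes. Sult6b2, a cytosolic sulfotransferase (chr6:142785204-142804502, minus strand, GRCm38), was at 0.035 in C, 0.199 in R, 137 in 1K, 52.8 in 2K, 24.7 in 3K, 15 in RR, 54.9 in 1KR, 3.19 in 2KR and 0.261 in 3KR FPKM. The 1K level was the highest, C, R and 3KR were below 1 FPKM, and the difference from R was 7.62. Papss2, which makes the activated sulfate that sulfotransferases use, was at 31.8 FPKM in R, 210.2 in 1K, 91.5 in RR and 29.8 in C, a difference from R of 2.70. Sult1b1 (1.52) and Sult1d1 (1.56) were also at least 2-fold higher than in R, and the sulfate carriers Slc13a1 (0.08) and Slc26a2 (-0.20) were not. Of the 12 genes of the list, 4 were higher by 2-fold or more and 0 lower.

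The encoded proteins themselves were described by their methionine content. Among protein-coding genes the median share of methionine residues was 2.28% for the 777 genes at least 2-fold higher in 1K, 2.08% for the 893 lower and 2.14% for the 11416 others with a complete coding sequence. Weighted by FPKM and protein length, methionine made up 2.27% of residues in R and 2.37% in 1K, the highest of the 9 libraries, which ranged from 2.18% in 2K. The genes higher in 1K also encode shorter proteins (median 375 residues against 492 for those lower), and the part of length in the methionine share was not tested.

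A set of genes stood apart in the libraries of all 3 deficient diets at day 28. 2K and 3K also hold pancreatic RNA, 2K holds liver and stomach RNA, and markers of gut position differ between libraries. The part of these in the set was not tested. In 1K, 2K and 3K, 35 of 21249 genes were at least 2-fold above all 6 libraries on normal diet at collection (0.165%) and 37 at least 2-fold below them (0.174%), of which 27 and 18 are protein-coding. Mt1, a metallothionein that binds zinc and copper, was among the high ones. It was at 109 in C, 94.4 in R, 968 in 1K, 3224 in 2K, 2687 in 3K, 67.5 in RR, 109 in 1KR, 149.7 in 2KR and 320.1 in 3KR FPKM. Mt2, its neighbour on chromosome 8, was at 26.2 in C, 20 in R, 202 in 1K, 1795 in 2K, 1583 in 3K, 11.5 in RR, 20.2 in 1KR, 44 in 2KR and 151 in 3KR FPKM. 1K, 2K and 3K were again the 3 highest libraries, but 3KR came within 2-fold of 1K. The differences of 1K from R were 3.35 for Mt1 and 3.30 for Mt2. Their RefSeq promoters (GRCm38.p6, Mt1 chr8:94178839-94179118 and Mt2 chr8:94172368-94172647, both plus strand, 250 bases before the start and 30 from it) are shown because the neighbouring genes moved together and hold several copies of the metal response core, TGCACNC or TGCGCNC on either strand, in capitals.
Mt1: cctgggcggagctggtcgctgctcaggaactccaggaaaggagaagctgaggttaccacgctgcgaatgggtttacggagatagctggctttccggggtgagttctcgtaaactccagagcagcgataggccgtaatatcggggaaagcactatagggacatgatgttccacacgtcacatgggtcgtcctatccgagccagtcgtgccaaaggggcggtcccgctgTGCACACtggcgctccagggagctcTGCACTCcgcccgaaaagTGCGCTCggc
Mt2: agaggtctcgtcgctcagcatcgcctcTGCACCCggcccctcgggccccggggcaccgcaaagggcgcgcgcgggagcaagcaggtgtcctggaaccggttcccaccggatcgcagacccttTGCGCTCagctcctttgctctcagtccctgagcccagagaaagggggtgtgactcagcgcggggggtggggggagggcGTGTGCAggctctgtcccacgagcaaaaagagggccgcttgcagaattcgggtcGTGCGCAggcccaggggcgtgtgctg
The core occurs 3 times in the Mt1 window and 4 times in the Mt2 window, and at least once in 25.7% of all 32851 promoters, so that a single match is common. Counted by gene, it was found in 39.0% of all genes kept that have an entry. Its share was 33.4% of the genes at least 2-fold higher in 1K and 33.1% of those at least 2-fold lower. Metallothioneins are also targets of the glucocorticoid receptor, and its response element was not searched for.

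On the list of glucocorticoid targets, 6 of 10 genes were 2-fold or more higher in 1K, none lower, and 4 at least 2-fold above R, RR and C (median 1.26). Fkbp5, the co-chaperone that damps the receptor, was at 4.24 in C, 29.9 in R, 240.2 in 1K, 229 in 2K, 125 in 3K, 10.9 in RR, 15 in 1KR, 7.36 in 2KR and 55.6 in 3KR FPKM. 1K, 2K and 3K were the 3 highest libraries. Zbtb16, a zinc finger factor, was at 7.18 FPKM in R and 27.1 in 1K, and Sgk1, the kinase that acts on sodium uptake, at 415 and 1084. Cyp11b1, the enzyme of the last step of corticosterone synthesis, was at 0.035 in C, 0.063 in R, 1.04 in 1K, 1.25 in 2K, 2.71 in 3K, 0 in RR, 0 in 1KR, 0.01 in 2KR and 0.043 in 3KR FPKM, which at the depth of these libraries is a low level. Cyp11b1 acts in hormone synthesis and is not itself a receptor target, yet the 10, the 6 and the 4 genes given above all include it. Klf9 (-0.46) and Nfkbia (-0.27), also on the list, were not higher. Of 14 FOXO targets and fasting genes 5 were 2-fold or more higher, 0 lower and 2 at least 2-fold above R, RR and C, with a median of 0.35 that turned to -0.20 after scaling to protein-coding FPKM. Pdk4, which blocks pyruvate oxidation, was at 17.2 FPKM in R, 151 in 1K, 212 in 2K and 165 in 3K, and G6pc, the last step of glucose release, at 5.76, 59.3, 104 and 71.8. Fbxo32, a FOXO target of muscle wasting, was at 7.74 FPKM in R and 6.6 in 1K.

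Other genes of the shared set were Gml2 and Gml, neighbouring members of the Ly6 family on chromosome 15. Gml2 was at 0.341 in C, 0.341 in R, 25.9 in 1K, 18.2 in 2K, 41 in 3K, 0.318 in RR, 0.25 in 1KR, 0.12 in 2KR and 1.26 in 3KR FPKM. Gml was at 0.544 FPKM in R, 26.6 in 1K, 24.8 in 2K and 53.1 in 3K, and both stayed below 3 FPKM in the 6 other libraries. As the copies are alike, their reads could be split between them. Among the low protein-coding genes the largest gap belonged to Olfm4, a secreted glycoprotein of crypt stem cells, at 313 in C, 214 in R, 3.51 in 1K, 1.03 in 2K, 0.916 in 3K, 200.0 in RR, 202 in 1KR, 274 in 2KR and 35.5 in 3KR FPKM. Olfm4 was below 4 FPKM in the 3 deficient libraries and above 30 in the 6 others, and its difference between 1K and R was -5.74. Histone genes of the S phase were among the low ones, with H3c2 at 41.4 FPKM in R and 11.2 in 1K, together with Uhrf1, which guides maintenance methylation of DNA (15.4 FPKM in R and 5.21 in 1K). In the genes of this set, methionine deficiency and the other deficient diets cannot be told apart. The part of other tissues and of gut position in 2K and 3K was not tested.

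**Figure D2:**
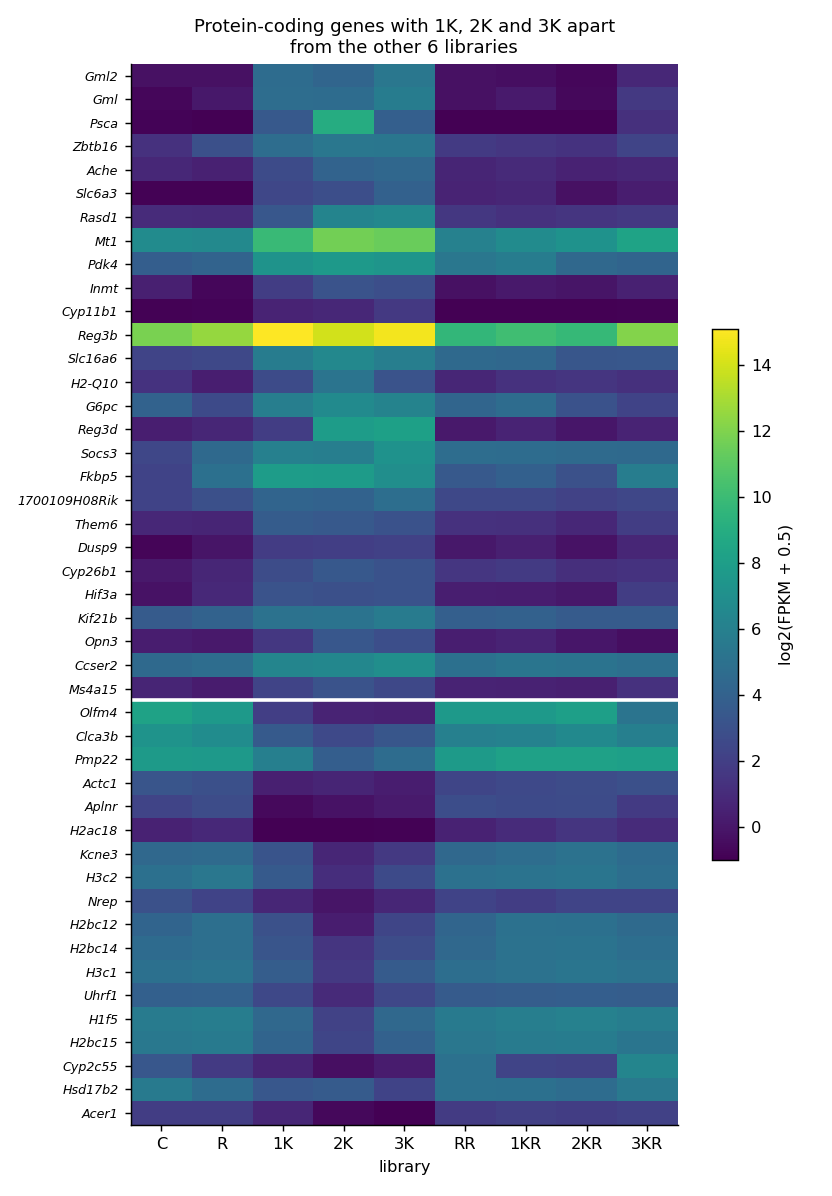
Levels as log2(FPKM + 0.5), in colour, of the 45 protein-coding genes (rows) of which 1K, 2K and 3K are all at least 2-fold apart from the other 6 libraries (columns, 1 library each); the white line separates the 27 high genes from the 18 low ones. 3KR is the nearest of the other libraries for several genes, such as Mt1 and Fkbp5.

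Genes for the absorption of sugar and fat were the groups most often higher in 1K than in R. Of 12 genes of sugar digestion and use, 11 were higher by 2-fold or more and none lower (median 1.94), and 1K had the highest level of the 9 libraries for 7. Slc2a2, the basolateral glucose carrier, was at 6.17 in C, 32.9 in R, 357 in 1K, 77.8 in 2K, 30.3 in 3K, 203 in RR, 185 in 1KR, 104 in 2KR and 12.5 in 3KR FPKM. Sis, the sucrase-isomaltase, was at 646 FPKM in R, 2339.8 in 1K and 1098 in RR, and Slc5a1, the sodium-glucose carrier, at 432, 1526 and 594. Mgam, the maltase-glucoamylase, was at 434 in C, 890.3 in R, 2363 in 1K, 607 in 2K, 681 in 3K, 779 in RR, 960.0 in 1KR, 945 in 2KR and 581 in 3KR FPKM, and 1K was at least 2-fold above all 8 other libraries. Fructose use followed, with Slc2a5, the fructose carrier (45.2 and 236 FPKM in R and 1K, 2.37), and Khk, the fructose kinase (82.4 and 322 FPKM in R and 1K, 1.96). Of the list, 4 genes were at least 2-fold above R, RR and C.

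Of 23 genes of lipid absorption 15 were higher by 2-fold or more and none lower (median 1.18), and the list held 1.56% of all FPKM in R and 4.99% in 1K. Fabp1, the fatty acid binding protein of proximal enterocytes, was at 55.1 in C, 113 in R, 2941 in 1K, 442 in 2K, 1295 in 3K, 1525 in RR, 1952 in 1KR, 1334 in 2KR and 127 in 3KR FPKM. Apoa4, the chylomicron apolipoprotein, was at 474 in C, 498 in R, 9730.0 in 1K, 5424 in 2K, 6306 in 3K, 4439 in RR, 5671 in 1KR, 2329.5 in 2KR and 1279.9 in 3KR FPKM. In both genes R and C were among the low libraries and RR and 1KR among the high ones. The list therefore stood apart less from R, RR and C together, with 2 genes at least 2-fold above all 3. These were Apoa4 and Dgat2, the latter of triacylglycerol synthesis, at 78 FPKM in R, 620.4 in 1K and 259 in RR. Plin2, of lipid droplets (0.20), and Npc1l1, the cholesterol importer (-0.01), were within 2-fold. Most of the position markers above moved with these genes, but Fabp1 is itself on the list of proximal genes, so the lists are not independent.

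**Figure D3:**
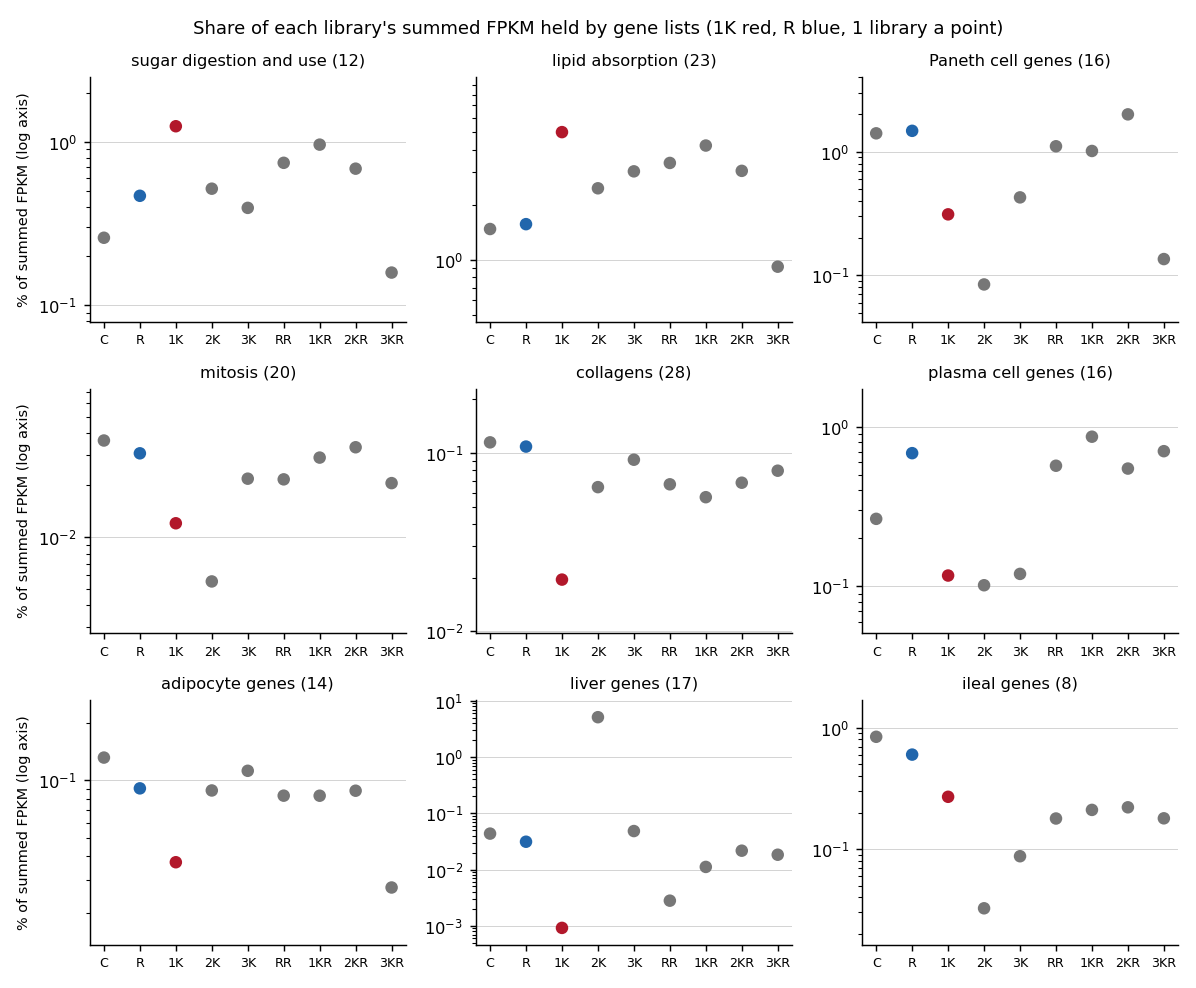
Share of each library's summed FPKM held by 9 gene lists (vertical axes, percent, log scale) in the 9 libraries (horizontal axes), 1 point per library, 1K in red and R in blue; numbers in parentheses are genes found. 1K is the highest library for sugar and lipid absorption and the lowest for collagens and liver genes, while for ileal genes C and R are the highest.

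Fatty acid synthesis went the other way. Of 12 genes 4 were at least 2-fold lower and 1 higher (median -0.62), and 2 were at least 2-fold below R, RR and C. Scd1, the stearoyl-CoA desaturase, was at 389 in C, 146 in R, 10.9 in 1K, 348 in 2K, 80.7 in 3K, 117 in RR, 200.2 in 1KR, 211 in 2KR and 36.7 in 3KR FPKM, with 1K at least 2-fold below all 8 others. Fasn, the fatty acid synthase, was at 58.5 and 21.4 FPKM in R and 1K, -1.43, and Acaca, which makes malonyl-CoA, at 22.3 and 7.92 FPKM in R and 1K, -1.44. The one higher was Srebf1, the factor that drives these genes, at 52.9 and 123 FPKM in R and 1K, 1.21. Scd1 and Fasn are abundant in fat tissue, whose markers were lower in 1K too. Fat oxidation genes had a median of 0.73, with 5 of 19 at least 2-fold higher, among them Acadl, the long-chain acyl-CoA dehydrogenase (52.3 and 272 FPKM in R and 1K, 2.37). Cpt1a, which admits fatty acids to mitochondria, was at 60.5 FPKM in R and 60.1 in 1K.

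All 36 nuclear genes of oxidative phosphorylation were higher in 1K than in R by between 0.34 and 1.32 (median 0.82), and 6 by 2-fold or more. Atp5b, a subunit of ATP synthase, was at 795 FPKM in R, 1479.9 in 1K and 1506 in RR. The level in RR was as high, and no gene of the list was 2-fold above R, RR and C. The 13 mitochondrially encoded genes had a median of 0.70. Nuclear and mitochondrially encoded genes alike lie lower after scaling to protein-coding FPKM, which moves the median of all genes from 0.03 to -0.47. The smallest differences of both lists then fall below 0. Of 16 cytochrome P450 genes, enzymes of drug and steroid oxidation, 9 were higher by 2-fold or more and 1 lower (median 1.15), and 2 were at least 2-fold above R, RR and C. Cyp3a11 was at 54.3 FPKM in R, 379.6 in 1K and 722 in RR, and Por, the reductase that supplies them with electrons, at 74.7, 367 and 161. RR was above 1K for Cyp3a11 and below it for Por.

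Sodium and water transport belonged to the higher groups as well, with 8 of 16 genes 2-fold or more higher, none lower, and 4 at least 2-fold above R, RR and C. Slc9a3, the apical sodium-proton exchanger, was at 16.8 in C, 38.6 in R, 147 in 1K, 94.4 in 2K, 154 in 3K, 51.3 in RR, 57.2 in 1KR, 53.4 in 2KR and 72 in 3KR FPKM. 1K exceeded R, RR and C by 2-fold or more, and 3K was at a similar level. Guca2b, which encodes uroguanylin, a gut peptide that acts on salt and water secretion, was at 874 FPKM in R and 5115 in 1K. Slc12a2, the chloride loader of crypt cells, was at 45 and 24.9 FPKM in R and 1K, -0.84.

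Genes of epithelial defence differed by member. Reg3b, a C-type lectin with antibacterial activity, was at 3696 in C, 6069.8 in R, 35192 in 1K, 16411 in 2K, 28692 in 3K, 806 in RR, 1132 in 1KR, 901 in 2KR and 4343 in 3KR FPKM. Reg3g, its relative that kills Gram-positive bacteria, was at 1626 in C, 2969.9 in R, 10668 in 1K, 2643 in 2K, 8376 in 3K, 549 in RR, 758 in 1KR, 973 in 2KR and 1383 in 3KR FPKM. The high libraries were 1K, 2K and 3K for Reg3b, and 1K and 3K for Reg3g. Saa1, an acute-phase lipoprotein, was at 27.1 in C, 23.2 in R, 231 in 1K, 5432 in 2K, 102 in 3K, 0.552 in RR, 3.12 in 1KR, 7.09 in 2KR and 424 in 3KR FPKM, while its neighbour Saa2 was at 9.05 FPKM in R and 0.722 in 1K, and as the copies are alike, their reads could be split between them. Il18, an epithelial cytokine of the inflammasome, was at 19.6 FPKM in R and 125 in 1K, at least 2-fold above all 8 other libraries. Fut2, which fucosylates surface glycans, was at 13.7 in R and 110.0 in 1K. Nos2, the inducible nitric oxide synthase (95.2 and 27.5 FPKM in R and 1K, -1.77), and Duox2, the hydrogen peroxide source of the epithelium (30.3 and 10.8 FPKM in R and 1K, -1.45), were lower than in R, though not lower than in RR. Over the 18 genes of the list 4 were higher by 2-fold or more and 6 lower.

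Paneth cell genes were lower, with 12 of 15 at least 2-fold lower, none higher, a median of -1.99, and 11 at least 2-fold below R, RR and C. Lyz1, the lysozyme of Paneth granules, was at 1592 in C, 2149 in R, 484 in 1K, 109 in 2K, 554 in 3K, 2048 in RR, 1516 in 1KR, 3407 in 2KR and 193 in 3KR FPKM. Ang4, an antimicrobial ribonuclease, was at 143 in C, 141 in R, 14.1 in 1K, 0.539 in 2K, 12.1 in 3K, 92.2 in RR, 74.7 in 1KR, 178 in 2KR and 6.8 in 3KR FPKM, and Pla2g2a, a secreted phospholipase, at 2109.7 in R and 351 in 1K. The α-defensin Defa24 was at 2596 FPKM in R and 1187 in 1K and Defa30 at 649 FPKM in R and 177 in 1K; reads of this family can be split among near-identical copies. 2K and 3KR were lower still than 1K for Lyz1 and Ang4. In tissue RNA, fewer cells of a type and less RNA per cell cannot be told apart, here and in the groups that follow.

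Many crypt stem cell and mitosis genes were lower too. Of 19 stem and crypt genes 6 were at least 2-fold lower and none higher (median -0.84), with 3 at least 2-fold below R, RR and C. Lgr5, the receptor that marks crypt base stem cells, was at 8.62 in C, 6.28 in R, 1.75 in 1K, 0.506 in 2K, 0.492 in 3K, 4.15 in RR, 2.05 in 1KR, 4.55 in 2KR and 2.47 in 3KR FPKM. 1K was lower than R, RR and C in Lgr5, and 2K and 3K lower again. Axin2, a target of Wnt signalling, was at 29.1 and 13.2 FPKM in R and 1K, -1.11, whereas Myc (-0.02) and Rnf43 (0.26) were within 2-fold. Of 20 genes of mitosis 8 were at least 2-fold lower (median -0.86) and 19 were below R, RR and C at once, 2 of them by 2-fold or more. Mki67, the proliferation marker, was at 20.8 in C, 21.9 in R, 8.37 in 1K, 4.11 in 2K, 18.9 in 3K, 14.7 in RR, 16.5 in 1KR, 23.3 in 2KR and 23 in 3KR FPKM. Of 20 genes of DNA replication 2 were at least 2-fold lower (median -0.54), a share near the 8.63% over all genes.

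Other epithelial lineages differed less. Of 16 goblet cell genes 1 was higher by 2-fold or more and 1 lower (median -0.10). Muc2, the main gel-forming mucin, was at 7863 FPKM in R and 5892 in 1K, and Tff3, the trefoil peptide, at 1721 FPKM in R and 1927 in 1K. The goblet genes apart were Klk1, a kallikrein (60.5 and 16.4 FPKM in R and 1K, -1.85), and Muc3, a membrane mucin also made by enterocytes (411 and 1426 FPKM in R and 1K, 1.79). Enteroendocrine genes had 5 of 14 higher by 2-fold or more and 1 lower. The hormones of the proximal gut, Gip (43.7 and 181 FPKM in R and 1K, 2.04) and Cck (7.07 and 33 FPKM in R and 1K, 2.14), were among the higher. Both are themselves on the list of proximal genes given above. Gcg, the precursor of the distal hormone GLP-1 (36.7 and 16.1 FPKM in R and 1K, -1.16), was the lower one. Of 16 junction genes 1 was at least 2-fold lower, Cldn4 (28 and 12.8 FPKM in R and 1K, -1.11).

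Antibody-producing cells gave some of the most uniform differences. Of 18 B cell genes 15 were at least 2-fold lower and all were below 0 (median -1.51), with 7 at least 2-fold below R, RR and C. Cd37, a tetraspanin of B cells, was at 7.88 in C, 9.83 in R, 1.9 in 1K, 5.69 in 2K, 9.05 in 3K, 8.09 in RR, 9.15 in 1KR, 6.98 in 2KR and 25.5 in 3KR FPKM, lowest in 1K by 2-fold or more. Of 14 plasma cell genes 11 were at least 2-fold lower (median -1.67). Igha, the IgA heavy chain, was at 363 in C, 882 in R, 229 in 1K, 176 in 2K, 118 in 3K, 1109.6 in RR, 1810.0 in 1KR, 873 in 2KR and 399.8 in 3KR FPKM. C, without DSS, was itself lower than R for Igha and nearer to 1K, and 3 genes of the list were 2-fold below R, RR and C together. Of 159 immunoglobulin variable segments, 126 were at least 2-fold lower and 2 higher. Follicles lie unevenly along the gut, and whether a sample held one was not tested.

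Of 21 macrophage genes 19 were below their level in R and 10 at least 2-fold lower, with a median of -0.99 and 1 below R, RR and C by 2-fold. Gpnmb, a glycoprotein of lipid-laden macrophages, was at 0.198 FPKM in C, 17.7 in R, 2.35 in 1K and 14 in RR, and Mmp12, the macrophage elastase, at 0.624, 14, 1.67 and 11.1. In both genes the DSS libraries R and RR were high, C was low, and 1K lay between. C1qa, of resident macrophages, was at 34.7 FPKM in R and 20.9 in 1K. Of the 10 genes of MHC class II presentation all were below 0 (median -0.78) and 2 were at least 2-fold lower. T and NK cell genes had 3 of 19 higher by 2-fold or more and none lower, led by the granzyme gene Gzma (12.6 and 30.2 FPKM in R and 1K, 1.23), but RR was higher still for Gzma (44.8 FPKM) and the list median of 0.28 turned to -0.14 after scaling to protein-coding FPKM.

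The extracellular matrix was the group with most genes lowest in 1K. Of 21 collagen genes 17 were at least 2-fold lower and 1 higher (median -1.53), 11 were at least 2-fold below R, RR and C, and 1K was the lowest of the 9 libraries for 17. Col1a1, of fibrillar type I collagen, was at 51.6 in C, 46.7 in R, 4.18 in 1K, 14.3 in 2K, 19.7 in 3K, 29.8 in RR, 27 in 1KR, 35.8 in 2KR and 70.5 in 3KR FPKM. Col3a1, of the fibrillar collagen of soft organs, was at 250.2 in C, 237 in R, 23.7 in 1K, 93 in 2K, 111 in 3K, 174 in RR, 128 in 1KR, 163 in 2KR and 218 in 3KR FPKM. In both, 1K was at least 2-fold below all 8 other libraries. Of 31 other matrix genes 20 were at least 2-fold lower and none higher, such as Sparc, which binds collagen (129.9 and 23.2 FPKM in R and 1K, -2.46), Fn1, fibronectin (66.8 and 14.9 FPKM in R and 1K, -2.13), and Serpinh1, the collagen chaperone (25.8 and 6.16 FPKM in R and 1K, -1.98). Fibroblast identity genes differed less: Pdgfra was at 20.5 FPKM in R and 13.2 in 1K, and 5 of 17 were at least 2-fold lower (median -0.50). Smooth muscle genes had a median of -0.64 and endothelial genes of -0.14.

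Fat and liver markers were lower alongside. Of 13 adipocyte genes 8 were at least 2-fold lower, 1 higher (median -1.62) and 7 at least 2-fold below R, RR and C. Car3, the carbonic anhydrase of fat, was at 254 in C, 144 in R, 2.94 in 1K, 54.1 in 2K, 58 in 3K, 122 in RR, 109 in 1KR, 141 in 2KR and 25.6 in 3KR FPKM. Adipoq, adiponectin, was at 35.4 in C, 20.7 in R, 0.85 in 1K, 11 in 2K, 20.9 in 3K, 17.1 in RR, 18.1 in 1KR, 20.3 in 2KR and 3.34 in 3KR FPKM. 1K was lowest for both. Adipoq and Plin1, a coat protein of fat droplets, were below 1 FPKM in 1K, while Fabp4, a fatty acid binding protein of fat, was at 32.6 FPKM in R and 10.3 in 1K. Of the list, 4 members were above their level in R, led by Cidec, a protein of lipid droplets (40.5 and 105 FPKM in R and 1K, 1.36). The adipocyte list summed to 544 FPKM in R, 300.5 in 1K, 587 in RR and 788 in C. Of 14 liver genes 13 were at least 2-fold lower; Alb, albumin, was at 167 in C, 85.3 in R, 1.08 in 1K, 15459 in 2K, 81.7 in 3K, 3.36 in RR, 30.3 in 1KR, 72.9 in 2KR and 59.2 in 3KR FPKM. 2K was far the highest for Alb, and 1K and RR were the lowest. How much mesenteric fat or other adhering tissue each sample held, and its part in the lower collagen and Scd1 levels, was not tested.

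**Figure D4:**
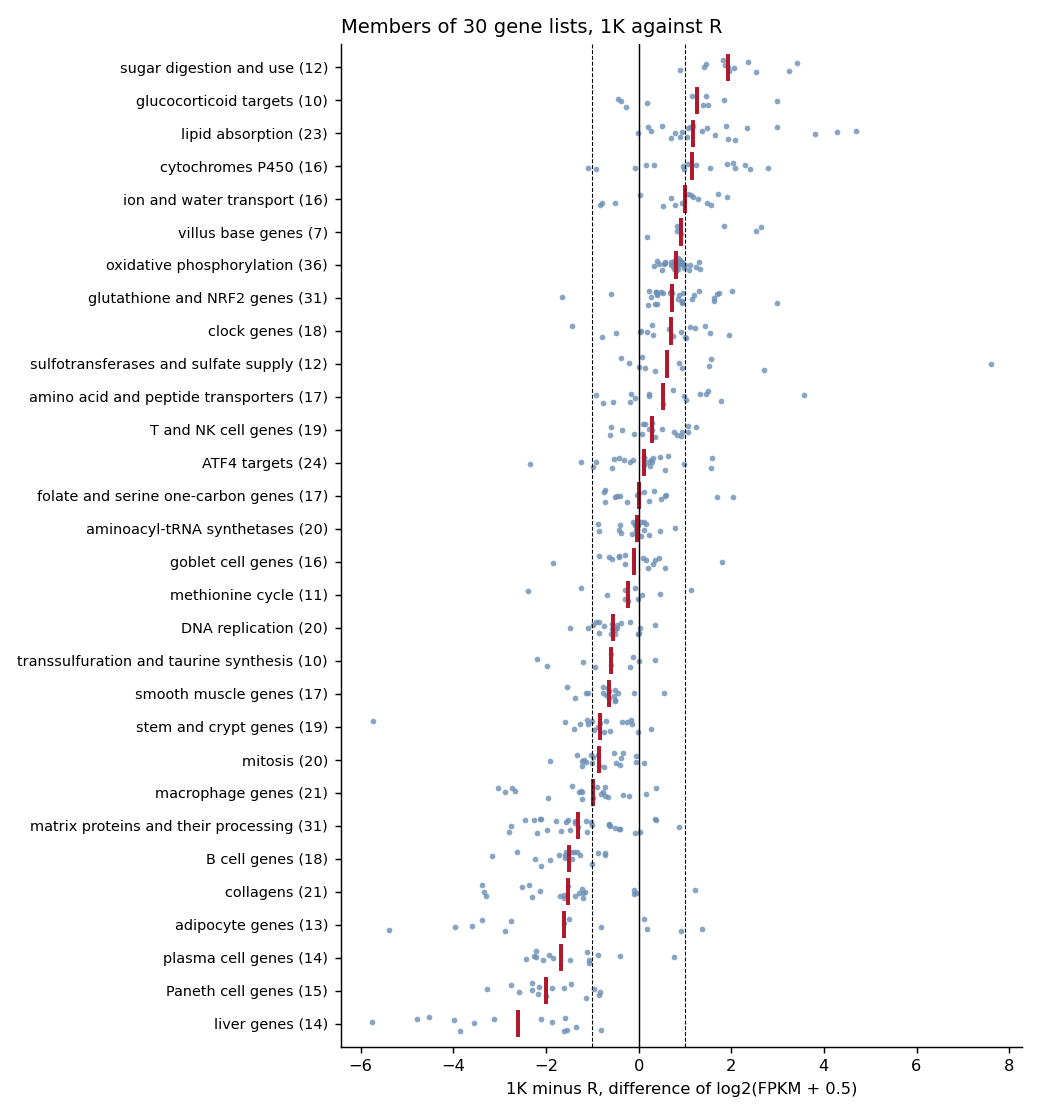
Difference between 1K and R of each member of 30 gene lists (blue points, horizontal axis, log2(FPKM + 0.5), 1 library a side) with the list median in red and the number of members kept in parentheses; dashed lines mark 2-fold. Lists run from liver genes (median -2.61) to sugar digestion and use (median 1.94), and the methionine cycle lies near 0.

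Outside all 8 other libraries, 86 of 21249 genes were at least 2-fold higher in 1K (0.405%) and 80 at least 2-fold lower (0.376%). The same counts for the other libraries ran from 58 (RR) to 812 (2K) on the high side and from 9 (R) to 216 (2K) on the low side, so 1K was not unusual in its high genes and had more low ones than 5 of the other 8. Of the high genes 18 are protein-coding, among them Prkg2, the cyclic GMP kinase of enterocytes, at 28.7 FPKM in R and 151 in 1K, and Ndrg1, a stress- and hypoxia-responsive gene, at 46.9 FPKM in R and 291 in 1K. Hlf, a clock output factor, was at 6.97 and 28.3 FPKM. Most of the others are non-coding RNAs or pseudogenes, among them AY036118, a lincRNA of GENCODE on chromosome 17, at 120.3 FPKM in 1K and listed at 0 in the 8 others. Of the low genes 56 are protein-coding, and matrix (Col3a1, Col1a1, Sparc), fat (Car3, Lpl, Adipoq) and B cell genes (such as Cd37) recur among them. Lpl, the lipoprotein lipase, was at 34.1 in C, 20.7 in R, 2.63 in 1K, 63.3 in 2K, 47.2 in 3K, 17.3 in RR, 16.9 in 1KR, 19.1 in 2KR and 15.1 in 3KR FPKM.

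The libraries of the methionine-deficient diets at day 28, 1K and 3K, stood together outside the other 7 by 2-fold for 16 genes on the high side (0.0753%) and 8 on the low side (0.0376%), of which 10 and 1 are protein-coding. Clca3a1, a secreted chloride channel accessory protein, was at 2.26 in C, 3.98 in R, 63.5 in 1K, 7 in 2K, 41.5 in 3K, 2.44 in RR, 4.42 in 1KR, 12.4 in 2KR and 2.86 in 3KR FPKM. Reg3g, Gpx2 and Fut2, given above, belong here, as does Unc93a, a membrane protein of the enterocyte, at 3.38 in C, 6.38 in R, 18.3 in 1K, 2.65 in 2K, 15.5 in 3K, 5.98 in RR, 6.07 in 1KR, 6.47 in 2KR and 3.56 in 3KR FPKM. Myot, a protein of the sarcomere, was at 0.268 FPKM in R, 9.33 in 1K and 4.43 in 3K. The low coding gene was Ces2b, a carboxylesterase, at 2.75 in C, 1.55 in R, 0.261 in 1K, 1.63 in 2K, 0.181 in 3K, 5.34 in RR, 3.2 in 1KR, 2.19 in 2KR and 3.37 in 3KR FPKM. For Fut2, 2K was at 53.9 FPKM, above R, so its level was not low in every library of a diet with methionine.

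The pair 3K and 2K asks the same question on a diet also deficient in tryptophan and niacin, and shares no library with 1K and R. There, 1107 of 18485 genes were at least 2-fold higher in 3K (5.99%) and 1742 lower (9.42%). Among 16510 genes kept in both pairs, 109 were higher in both, which is 10.02% of the 1088 higher in 1K and 12.6% of the 862 higher in 3K, and 200 were lower in both, 16.1% and 17.9% of each list. More were opposed: 200 were higher in 1K and lower in 3K, and 263 lower in 1K and higher in 3K. Across these genes the differences had a Pearson r of -0.08, a description in which genes are not independent replicates. For the genes above, Clca3a1 differed by 2.48 between 3K and 2K, Gpx2 by 4.16, Gclc by 0.27 and Cdo1 by -4.46. Slc2a2 differed by -1.35, Mt1 by -0.26, Lyz1 by 2.33, Col1a1 by 0.45 and Mki67 by 2.07. Pancreatic RNA was present in both 2K and 3K, and liver and stomach RNA mainly in 2K. The part of these tissues in the values of this pair was not tested.

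**Figure D5:**
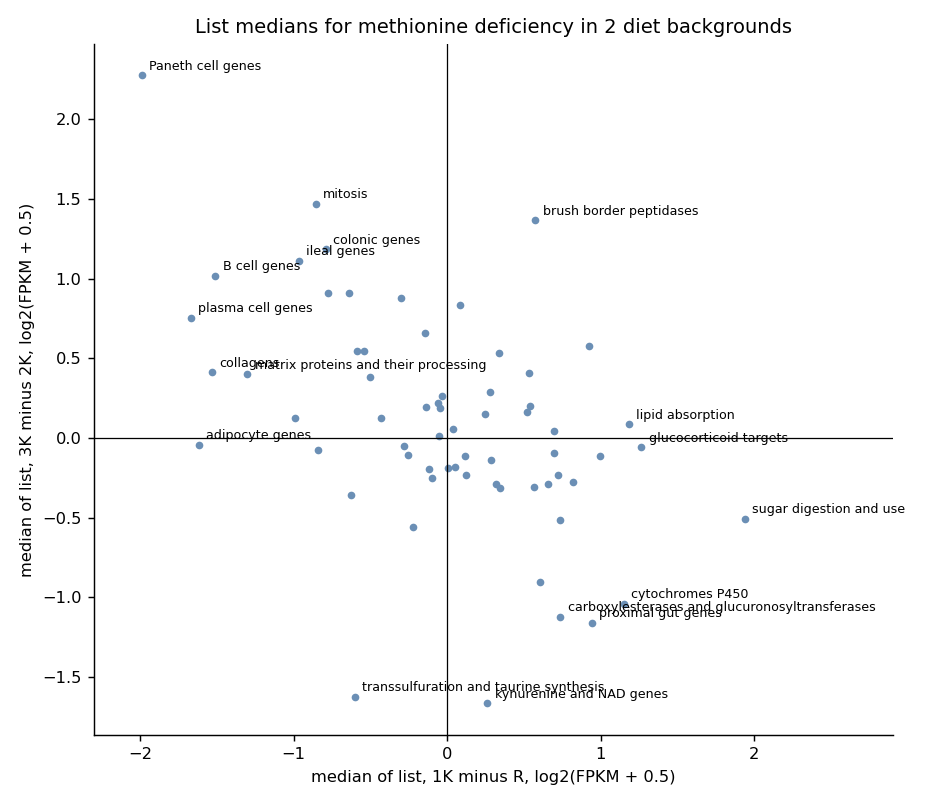
Median difference of each of 64 gene lists between 1K and R (horizontal axis) and between 3K and 2K (vertical axis), both as log2(FPKM + 0.5), 1 library a side; liver genes are left out. Lists are spread over all 4 quadrants, with Paneth cell genes at -1.99 and 2.27.

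After 5 days of normal diet the distance between the methionine library and its control was smaller by count. Between 1KR and RR, 422 of 17070 genes lay 2-fold or more above (2.47%) and 600 below (3.51%). Of 1082 genes higher in 1K than in R and kept in both pairs, 66 were higher in 1KR than in RR (6.10%), and of 1257 lower ones 121 were lower (9.63%). As many were opposed, with 67 of the higher genes lower in 1KR (6.19%) and 125 of the lower genes higher in 1KR (9.94%). Over the 16457 genes kept in both, 1.84% were higher in 1KR and 2.75% lower, and r was 0.08. Olfm4 was at 202 FPKM in 1KR and 200.0 in RR, Mt1 at 109 and 67.5, and Col1a1 at 27 and 29.8. Reg3b was at 1132 and 806 and Lyz1 at 1516 and 2048. Each of these was closer in that pair than between 1K and R. Sult6b2 was still apart, at 54.9 FPKM in 1KR and 15 in RR.

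A pair in which neither side had a deficient diet shows how far a pair of libraries can differ without one. Its sides differ in DSS and by a day, and also in gut position markers (Fabp6 -10.0) and clock genes (Dbp 4.73). The part of each in its values was not tested. Between RR and C, 1209 of 18018 genes lay 2-fold or more above (6.71%) and 1047 below (5.81%), about as many as between 1K and R. Of 1090 genes higher in 1K than in R and kept in both pairs, 430 were also higher in RR than in C (39.4%, and 40.6% of the 1059 higher in RR), and of 1358 lower ones 246 were lower in RR (18.1%, and 31.7% of the 775). In the opposite direction, 73 of the higher genes were lower in RR (6.70%) and 190 of the lower genes higher (13.99%). Over the 17100 genes kept in both, 6.19% were higher in RR and 4.53% lower, and r was 0.27. Absorptive genes are among those higher in both pairs: Fabp1 differed by 4.78 between RR and C, Apoa4 by 3.23, Slc2a2 by 4.93 and Cyp3a11 by 3.05. In contrast, Mt1 differed by -0.69, Fkbp5 by 1.26, Olfm4 by -0.65, Col1a1 by -0.78 and Lyz1 by 0.36.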

How the data were processed

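RNA was isolated from mouse intestinal tract, ribosomal RNA was removed and stranded libraries were sequenced, per the labels' protocols, with 1 library for each of 9 conditions. The deposited values are FPKM for 55468 genes, per the file headers. The submitters' processing notes name HISAT2 (version not stated), Cuffdiff 2.2.1 and GRCm38. The sources used here do not give the authors' annotation, filters or further scaling.

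FPKM was used as deposited. Differences of log2(FPKM + 0.5) were taken in 4 pairs, for genes reaching 1 FPKM on at least one side, and genes at least 2-fold apart were counted. Biotypes, coordinates and coding sequences came from GENCODE M21, which holds 55227 of the genes. Promoters came from RefSeq (GRCm38.p6). Depth was estimated from the steps of low FPKM values of genes with 1 transcript of 1000 to 3000 bases, of which 82.3 to 93.0% came out whole within 0.1 fragments. As the estimate rests on annotated lengths, no counting interval is given.

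The 70 gene lists and the rules for genes and pairs were chosen with earlier results of these data known, as were the members. Named genes were the 20 farthest each way from R, the 15 farthest each way outside the other 8 libraries, and from each list its first 4 members, the 6 that differed most and any nutrient gene. The pattern of 1K with 2K and 3K, the comparison with R, RR and C, further genes named from these patterns, the metal response core, the printed promoters and their 280-base windows were chosen after values were seen. A few genes that the rule names are not reported here. The pseudocount was also set to 1 and 0.1, the floor to 5 FPKM and to none, and both scalings were tried. Python 3.11.15, pandas 2.3.3, numpy 2.4.6 and Biopython 1.88 were used, and the difference and count step was tested on simulated data.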

Additional observations from a re-analysis of the deposited data

Results flagged for a closer look

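For 6 gene lists with at least 5 members kept, the median difference between 1K and R and that between 3K and 2K had opposite signs, both at least 0.8 from 0 on the log2(FPKM + 0.5) scale. The difference between the pairs was not tested, each rests on 1 library a side, and the limit of 0.8 was set after the values were seen. Paneth cell genes had a median of -1.99 between 1K and R and 2.27 between 3K and 2K. Genes of mitosis had -0.86 and 1.47. B cell genes had -1.51 and 1.02. Cytochromes P450 had 1.15 and -1.04. Ileal genes had -0.97 and 1.11, and proximal gut genes 0.94 and -1.16, so that markers of gut position were opposed as well. Red cell genes (-1.36 and 1.30) and stomach genes (0.88 and -7.74) were opposed too, each with 2 members kept. 2K, the control side of the second pair, was the library with liver and stomach RNA, at 5.13% and 2.44% of its FPKM.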

How the results depend on the processing

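No paired analysis was possible because each condition has 1 library, and no replicate could be left out. The count of genes at least 2-fold lower in 1K than in R was 1567, and 789 with a floor of 5 FPKM, where fewer genes were counted. Scaling to protein-coding FPKM gave 603 higher and 3531 lower genes, and outside the other 8 libraries 50 higher and 132 lower instead of 86 and 80. A pseudocount of 0.1 gave 222 genes lower outside the other 8. Leaving 2K and 3KR out of that comparison gave 145 lower, and against R, RR and C alone, an alternative chosen after seeing the data, the counts were 401 and 446. Of 70 list medians, 5 moved by over 1.5-fold with a floor of 5 FPKM, 6 with no floor and 1 with a pseudocount of 0.1. Of 291 named genes, 21 moved by that much with a pseudocount of 0.1 and 15 with a pseudocount of 1. Each scaling shifts all genes by nearly the same factor, below 1.5-fold, so neither could count as a move here. No named gene and no list median at least 2-fold from 0 changed sign under these settings. With medians nearer to 0, 19 lists changed sign under at least one of them. Depth limits genes below about 1 FPKM, and the lack of replicates limits every value.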

Other observations

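Clock genes differed between 1K and R, with 6 of 18 at least 2-fold higher, 1 lower and a median of 0.70, and 5 at least 2-fold above R, RR and C. Dbp, a clock output factor, was at 1.81 in C, 46.9 in R, 88.5 in 1K, 25.4 in 2K, 31.2 in 3K, 61.1 in RR, 99 in 1KR, 64.3 in 2KR and 11.3 in 3KR FPKM. C was far below the DSS libraries on normal diet in Dbp and far above them in Arntl, the activator of the clock, at 23 in C, 3.53 in R, 1.84 in 1K, 11.1 in 2K, 11.5 in 3K, 4.44 in RR, 3 in 1KR, 4.59 in 2KR and 6.25 in 3KR FPKM. The sources used here do not give the hour of collection, so hour and diet cannot be told apart for these genes.

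Interferon genes differed little. Of 27 genes of the type I interferon response, 2 were at least 2-fold lower and none higher, with a median of -0.12 that turned to 0.08 with a floor of 5 FPKM. Ifi27l2a, an interferon-induced gene, was at 27.4 FPKM in R and 5.82 in 1K. Of 14 heat shock genes 3 were at least 2-fold lower, beside 8.63% over all genes. Among them was Hsph1, a co-chaperone of Hsp70, at 32.6 and 12.8 FPKM in R and 1K. Hsph1 was at 10.7 FPKM in C, and no gene of the list was 2-fold below R, RR and C together.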
